A study of Mus musculus with 2 samples.

Results

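The genes described here are 38 genes of DNA replication, from *Mcm2* to *Rpa2*, chosen by name from the 31053 genes in the count tables. They encode proteins that load and start the replicative helicase, prime and extend new DNA, hold the sliding clamp, join Okazaki fragments, supply nucleotides and rebuild chromatin behind the fork. The choice used no measured value of these cells, though earlier results of these data were known when it was made. Single cells of mouse eye cups at e13.5 were measured in 2 libraries on the 10X Genomics platform, with the cornea, lens and optic nerve removed before dissociation. The control library held 3 pooled samples of genotype *Myrf* fl/fl, and the mutant library held 3 pooled samples of genotype *Rx>cre Myrf* fl/fl, so both genotypes carried the floxed *Myrf* alleles and only the mutant carried Cre recombinase expressed from *Rx*, a gene of the early eye field. Cre is therefore expected in lineages of the eye field and not in the mesenchyme, blood cells, macrophages or vessels of the same pool. The study asked what loss of *Myrf*, a gene for a membrane-bound transcription factor, does to the retinal pigment epithelium (RPE) and its neighbours before the defects are visible by histology.

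DNA replication is prepared in G1, when Cdc6 and Cdt1 load the ring of Mcm2 to Mcm7 onto origins, a step called licensing. At the start of S phase Cdc45 and the GINS complex turn this ring into an active helicase, DNA polymerase alpha with primase lays down primers, replication factor C loads the Pcna clamp, and the leading and lagging strands are extended and joined. Many of these genes are transcribed under E2F factors, which are held in check by the retinoblastoma protein until a cell commits to division. In the embryonic eye, progenitor cells of the neural retina divide, ganglion cells have left the cycle, and RPE cells slow their division as they acquire pigment.

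The printed promoter stretches show the E2F core that most members share, a feature the choice of genes did not use. The core was searched as TTCCCGC, likewise TTCGCGC, likewise TTGCCGC and likewise TTGGCGC, on either strand, beside CCAAT on either strand, in RefSeq promoters of GRCm38.p6 that run from 250 bases before to 50 bases after a start site. A promoter was found for 31 members. At least 1 E2F core stood in 21 of these (67.7%), against 10.9% of the 27025 genes with a promoter in the table and 14.1% of the 16522 protein-coding genes. CCAAT stood in 19 members (61.3%), against 41.1% of all genes and 42.1% of protein-coding genes. Both motifs, which may overlap, stood in 14 members (45.2%), against 4.85% and 6.48%. *Tyms*, *Dut*, *Ung*, *Rfc5* and *Pola2* held neither set of letters in this window, which says nothing of the factor at those genes. Of the licensing genes in the table, 6 of 7 held an E2F core, and of the genes of nucleotide supply and uracil removal 2 of 5 did. In the stretches below, chosen because they show how such cores are placed singly or in overlapping pairs, capitals mark an E2F core on either strand.
*Mcm6*, chr1:128359706-128359815, minus strand, bases -110 to -1 from the start site: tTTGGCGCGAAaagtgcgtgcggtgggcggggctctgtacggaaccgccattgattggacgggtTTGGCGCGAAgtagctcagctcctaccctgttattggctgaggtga
*Mcm5*, chr8:75109339-75109448, plus strand, bases -170 to -61: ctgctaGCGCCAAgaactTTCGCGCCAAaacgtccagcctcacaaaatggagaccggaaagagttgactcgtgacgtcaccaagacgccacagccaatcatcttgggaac
*Rrm1*, chr7:102441585-102441694, plus strand, bases -110 to -1: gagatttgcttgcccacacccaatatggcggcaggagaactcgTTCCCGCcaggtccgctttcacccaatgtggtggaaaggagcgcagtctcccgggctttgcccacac
*Chaf1a*, chr17:56040306-56040415, plus strand, bases -110 to -1: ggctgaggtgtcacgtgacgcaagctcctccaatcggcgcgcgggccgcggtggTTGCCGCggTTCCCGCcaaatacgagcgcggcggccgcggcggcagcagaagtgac
*Pclaf*, chr9:65890308-65890337, plus strand, bases -15 to 15: cttggagcgcGCGGGAAagagacccattta

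The deposited counts held 6039 barcodes and 63483835 unique molecular identifiers (UMIs) in the control library and 6754 barcodes and 75228861 UMIs in the mutant library. After filters on genes, mitochondrial UMIs and doublets, 5451 and 6309 cells remained, with medians of 11331 and 11160 UMIs per cell. The libraries shared 72 barcodes, mostly shallow ones in unnamed clusters, and without them no summed ratio moved beyond its counting interval. Cells fell into 29 clusters, of which 3 stayed unnamed (13.4% of control and 9.83% of mutant cells). The others formed 15 classes called X-like from their marker genes, and 11 classes had at least 30 cells in both libraries. The RPE-like class was a single cluster with 251 control and 154 mutant cells. UMIs were found there for 11 of 13 RPE markers in each library, and *Rpe65* and *Rgr* were at 0. *Myrf* had 155 UMIs (74.5 per 1000000 UMIs of the class, CPM) in control and 30 UMIs (20.1 CPM) in mutant RPE-like cells. Each genotype has a single library, so nothing here was tested, and every interval, at the 95% level, covers counting error only.

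The replication genes were highest in retinal progenitor-like and neurogenic precursor-like cells, lower in neurons and lowest in red blood cells. UMIs come from the 3′ ends of transcripts and are not divided by length, so levels are compared within a gene or a fixed set of genes. Their summed level was 3929 CPM (exact Poisson interval 3898 to 3959) in control and 4024 CPM (3993 to 4055) in mutant retinal progenitor-like cells. Neurogenic precursor-like cells, which express *Atoh7* on the way to becoming neurons, held 4094 CPM in control and 3577 CPM in the mutant library. Optic stalk-like cells held 3011 and 2963 CPM. The classes of neurons, whose cells have left the cycle, stood far below these. Retinal ganglion cell-like cells held 870 and 898 CPM, and amacrine or horizontal cell-like cells 809 and 933 CPM. RPE-like cells stood between, at 1124 CPM (1079 to 1170) in control and 1772 CPM (1705 to 1840) in mutant cells. Classes outside the eye field held replication transcripts too, and there the order of the libraries differed from class to class. Periocular mesenchyme-like cells held 2428 and 2156 CPM, and endothelium-like cells 2305.5 and 2305.4 CPM. Macrophage-like cells held 3254.5 and 2607 CPM, and surface ectoderm-like cells 2890.5 and 3200.5 CPM. Red blood cell-like cells, most of which carry little RNA besides that of globins, held 144 and 203 CPM.

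**Figure D1:**
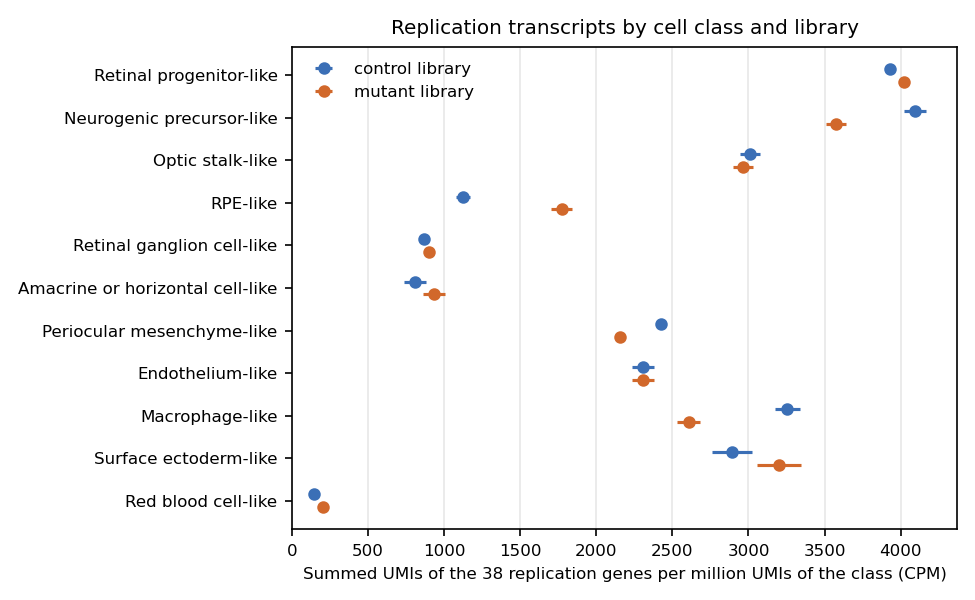
Summed UMIs of the 38 replication genes per 1000000 UMIs of each cell class (x axis, CPM) for the 11 classes with at least 30 cells in both libraries (y axis). Points are the control and mutant libraries and bars are exact Poisson intervals for counting error; relative to its level, the gap between libraries is widest in RPE-like cells, at 1124 and 1772 CPM.

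All 38 genes were higher in retinal progenitor-like than in ganglion cell-like cells, in both libraries. The ratio of the levels had a median of 4.83 in control and 4.88 in mutant cells. It was lowest for *Mcm2*, at 1.52 and 1.84, and highest for *Ung*, at 21.7 and 20.4. *Ung*, which encodes the glycosylase that removes uracil from new DNA, was at 48.0 and 56.7 CPM in progenitor-like cells and at 2.2 and 2.8 CPM in ganglion cell-like cells. All 38 were also higher in progenitor-like than in RPE-like cells, with a median ratio of 3.65 in control and 2.25 in the mutant library.

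Not every gene peaked in the same class. In the control library the highest class was the neurogenic precursor-like class for 12 genes, the retinal progenitor-like class for 11, the macrophage-like class for 9, the optic stalk-like class for 5 and the endothelium-like class for *Gins3*. In the mutant library it was the retinal progenitor-like class for 18 genes, the surface ectoderm-like class for 7, the optic stalk-like class for 5, and the neurogenic and macrophage-like classes for 4 each. Counting intervals set the highest class apart from the next in 8 genes of the control and 7 of the mutant library, so most of these orders were not detectable at this depth. *Rrm2*, the small subunit of ribonucleotide reductase that turns ribonucleotides into deoxyribonucleotides, was clearly set apart. It was at 379 and 360 CPM in neurogenic precursor-like cells against 148 and 156 CPM in progenitor-like cells. *Pclaf*, which encodes a small protein that binds the Pcna clamp, was also highest there in both libraries, at 597 and 532 CPM against 458 and 446 CPM. *Ung* stood instead in optic stalk-like cells, at 80.6 and 86.1 CPM, and *Rpa2*, a subunit of the protein that coats single-stranded DNA, in progenitor-like cells, at 157 CPM in both libraries.

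**Figure D2:**
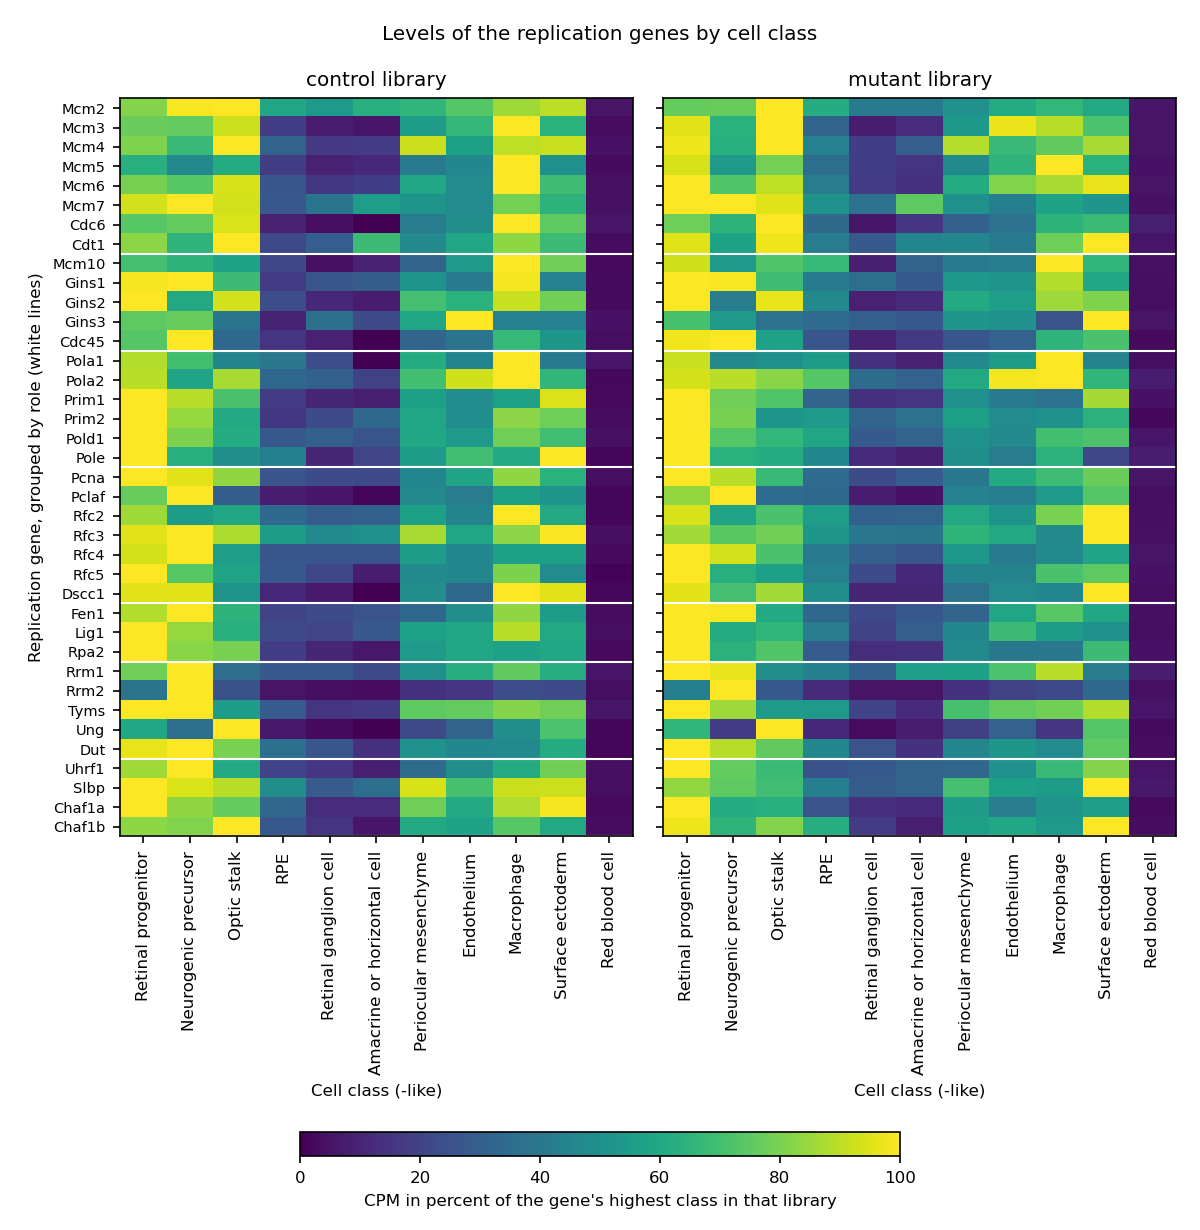
Level of each replication gene (rows, grouped by role) in 11 cell classes (columns) for the control and mutant libraries, as a percentage of that gene's highest class in the same library. Red blood cell-like, ganglion cell-like and amacrine or horizontal cell-like columns are dark for nearly all genes, and *Rrm2* is bright in the neurogenic precursor-like column.

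The comparison of the genotypes in RPE-like cells asks what loss of *Myrf* does in the class that expresses it. Enough UMIs for a ratio, 20 or more over both libraries, were found for 36 of the 38 genes. Of these, 35 were higher and 1 was lower in the mutant library (46.0% of all genes compared were higher), 22 were higher by 1.5-fold or more and 0 were lower by that fold. Over all 9717 genes of the class with that many UMIs, 6.61% were higher and 10.7% were lower by 1.5-fold. The median log2 ratio of mutant over control was 0.66 for the replication genes and -0.03 for all genes compared. Their summed UMIs were 2338 in control and 2650 in mutant cells, a log2 ratio of 0.66 (0.58 to 0.74). This difference came from a small number of deep cells, as given below with the split by depth.

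Licensing genes were all higher where compared, by modest ratios. *Mcm7*, a subunit of the helicase ring and the licensing gene with the most UMIs in the series, had 100 UMIs (48.1 CPM) in control and 125 UMIs (83.6 CPM) in mutant RPE-like cells, with a log2 ratio of 0.80 (0.41 to 1.19). *Mcm3* had 41 and 52 UMIs (log2 ratio 0.81, 0.20 to 1.45). *Cdt1*, whose protein brings the ring to origins, had 20 and 27 UMIs (log2 ratio 0.89, 0.02 to 1.82). The other compared ring genes, *Mcm2*, *Mcm4*, *Mcm5* and *Mcm6*, lay between log2 0.22 and 0.51, and *Cdc6*, with 4 and 9 UMIs, was below the minimum for comparison. Licensing genes together went from 219 to 320 CPM, a log2 ratio of 0.55 (0.36 to 0.74).

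Genes of helicase activation and of priming and synthesis had larger ratios. The intervals of their summed genes (0.62 to 1.42 and 0.62 to 1.30) overlapped that of the licensing genes. *Gins2*, a subunit of the GINS complex, had 51 UMIs (24.5 CPM) in control and 73 UMIs (48.8 CPM) in mutant cells, a log2 ratio of 0.99 (0.46 to 1.54). *Gins1*, from the same complex, had 14 and 21 UMIs (log2 ratio 1.03, 0.02 to 2.15). *Mcm10* and *Cdc45* were past 1.5-fold with intervals that crossed 0, and *Gins3*, with 3 and 8 UMIs, was below the minimum. *Prim1*, the catalytic subunit of primase, had 29 UMIs (13.9 CPM) and 40 UMIs (26.7 CPM), with a log2 ratio of 0.93 (0.21 to 1.68). *Prim2*, the large subunit of primase, had 15 and 36 UMIs (log2 ratio 1.69, 0.83 to 2.71). *Pola2*, a subunit of DNA polymerase alpha, had 23 and 34 UMIs (log2 ratio 1.02, 0.23 to 1.87). These primase and polymerase alpha genes act in 1 complex. The gene of its catalytic subunit, *Pola1*, was at 25 UMIs in each library and its interval crossed 0. The class held 2080699 UMIs in control and 1495694 in the mutant library, so equal UMIs are a ratio above 0. *Pold1*, the catalytic subunit of DNA polymerase delta, had 18 and 27 UMIs (log2 ratio 1.04, 0.15 to 2.01), and *Pole* had 14 and 11 UMIs. All 6 genes of priming and synthesis had log2 ratios above 0, from 0.15 to 1.69.

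The largest single differences were among genes of the clamp and its loaders. *Pclaf* had 101 UMIs (48.5 CPM) in control and 266 UMIs (178 CPM) in mutant RPE-like cells, with a log2 ratio of 1.86 (1.54 to 2.22) and the most UMIs of its role. *Dscc1*, whose protein belongs to an alternative clamp loader used for sister chromatid cohesion, had 8 and 29 UMIs (log2 ratio 2.21, 1.17 to 3.67). *Pcna* itself, the clamp, had 80 and 72 UMIs, a log2 ratio of 0.33 with an interval that crossed 0 (-0.16 to 0.80). The intervals of the clamp and its partner did not overlap. *Rfc4* had 106 and 116 UMIs (log2 ratio 0.61, 0.21 to 1.00), and *Rfc5*, another subunit of the clamp loader, had 59 and 65 UMIs (log2 ratio 0.61, 0.08 to 1.15). *Rfc2* and *Rfc3* were higher by less than 1.5-fold.

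Among the genes of Okazaki fragment joining, *Lig1*, the ligase that seals the lagging strand, had 67 and 98 UMIs (log2 ratio 1.02, 0.56 to 1.495). *Rpa2*, the gene of this group with the most UMIs over all cells, had 60 UMIs (28.8 CPM) and 68 UMIs (45.5 CPM), with a log2 ratio of 0.65 (0.13 to 1.18). *Fen1*, the nuclease that trims fragment ends, was past 1.5-fold with an interval that crossed 0. Of the genes of nucleotide supply, *Rrm2* had 42 and 67 UMIs (log2 ratio 1.14, 0.57 to 1.74). *Tyms*, the thymidylate synthase, had 115 and 152 UMIs (log2 ratio 0.88, 0.52 to 1.24). *Dut*, which keeps uracil out of the nucleotide pool and had the most UMIs of all 38 genes, had 415 UMIs (199 CPM) and 373 UMIs (249 CPM), with a log2 ratio of 0.32 (0.12 to 0.53), below 1.5-fold. *Rrm1*, the large subunit of the same reductase as *Rrm2*, was at log2 0.29 with an interval that crossed 0.

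Genes that copy chromatin were not alike among themselves. *Slbp*, which binds the stem loop of histone messages, had 178 UMIs (85.5 CPM) in control and 135 UMIs (90.3 CPM) in mutant cells, a log2 ratio of 0.08 (-0.26 to 0.41). *Chaf1a*, the large subunit of chromatin assembly factor 1, had 36 and 22 UMIs and the only ratio below 0 (-0.21, -1.07 to 0.57). *Chaf1b*, its partner subunit, had 31 and 46 UMIs (log2 ratio 1.03, 0.36 to 1.75). The 4 genes of this role together went from 129 to 148 CPM, and their log2 ratio of 0.19 had an interval that crossed 0 (-0.07 to 0.45). By comparison the ratio of the summed genes was 1.01 for helicase activation, 0.95 for priming and synthesis, 0.87 for the clamp and clamp loaders, 0.80 for Okazaki fragments and 0.51 for nucleotide supply and uracil removal. The interval for chromatin copying overlapped those for licensing (0.36 to 0.74) and nucleotide supply (0.35 to 0.67), and the difference between roles was not tested.

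**Figure D3:**
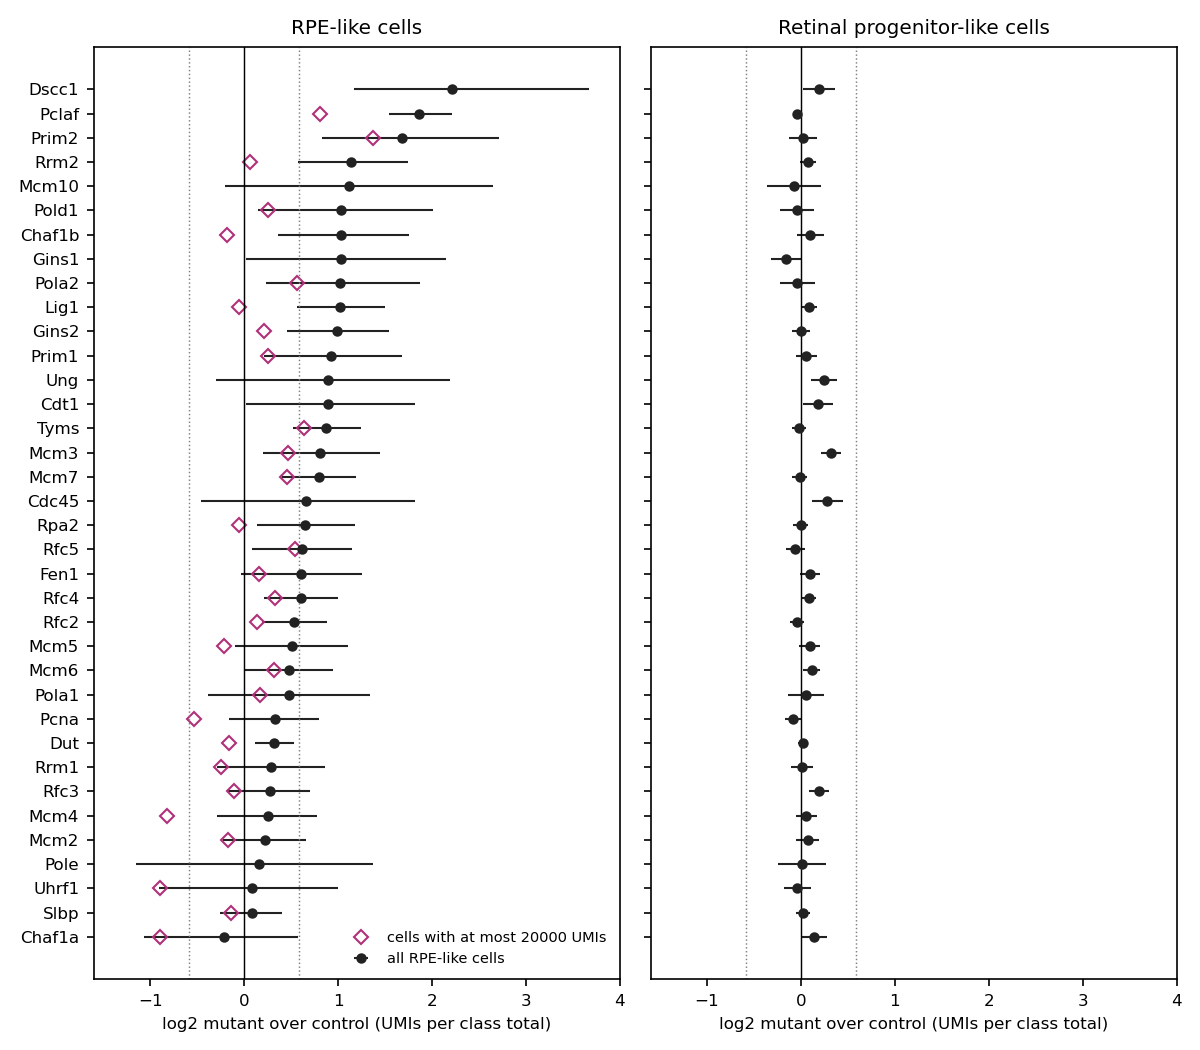
Log2 ratio of mutant over control UMIs per class total (x axis) for the 36 replication genes compared in RPE-like cells (left) and the same genes in retinal progenitor-like cells (right). Bars are exact conditional binomial intervals, dotted lines mark 1.5-fold, and open diamonds give RPE-like cells with at most 20000 UMIs; filled points lie mostly right of 0 on the left and close to 0 on the right, and the diamonds spread around 0.

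The higher level in the mutant library was held by RPE-like cells with over 20000 UMIs. These were 16 of 251 control cells (6.37%) and 27 of 154 mutant cells (17.5%). Cells marked as doublets had been removed before clustering, so none could be in the class. Whether the deep cells are doublets was not tested. They held 19.4% of the class UMIs and 29.6% of the replication gene UMIs in the control library, and 48.0% and 70.2% in the mutant library. Among them the summed level was 1710 CPM (1584 to 1842) in control and 2590 CPM (2474 to 2711) in mutant cells, a log2 ratio of 0.60 (0.47 to 0.73). In the remaining 235 control and 127 mutant cells it was 982 CPM (936 to 1031) and 1017 CPM (947 to 1090), a log2 ratio of 0.05 (-0.07 to 0.17). In those cells 3 of 29 compared genes were higher and 3 were lower by 1.5-fold. The shares over all genes were not counted for this part of the class, so these counts have no background beside them. The 3 higher were *Prim2* (log2 1.37, 0.28 to 2.52), *Pclaf* (0.81, 0.22 to 1.38) and *Tyms* (0.64, 0.07 to 1.19), and of these *Prim2* (2.49) and *Pclaf* (1.49, 1.04 to 2.03) were past 1.5-fold in the deep cells too. The 3 lower were *Uhrf1* (-0.89), *Chaf1a* (-0.89) and *Mcm4* (-0.82). *Lig1*, *Chaf1b* and *Rpa2* were at -0.06, -0.18 and -0.05 there.

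Markers of other cells were also counted in these cells, and those of neurogenic precursors lay in very few of them. *Atoh7*, the factor that starts ganglion cell fate, had 148 UMIs in the deep control cells and 502 UMIs in the deep mutant cells. Of these, 145 came from 2 of the 16 control cells and 499 from 2 of the 27 mutant cells, each with over 10 *Atoh7* UMIs, and the other deep cells had at most 1. *Neurog2*, a proneural factor of the same precursors, had 0 UMIs in the deep control cells and 34 UMIs in the deep mutant cells, all in the same 2 cells. These cells held 85 of 691 and 128 of 1859 replication gene UMIs of the deep cells. Without them the neurogenic markers of the deep cells were at 90.2 and 91.9 CPM, and the ratio of the summed replication genes was 0.54 (0.41 to 0.68). With all RPE-like cells of over 10 *Atoh7* UMIs left out, 4 control and 3 mutant cells, the ratio over the class was 0.66 (0.58 to 0.74), and 20 of 36 genes were higher by 1.5-fold. The share over all genes was not counted without these cells. RPE markers were lower in the deep cells, at 11949 and 9698 CPM against 15261 and 11270 CPM, and *Ttr*, a transport protein gene made by RPE, was at 158 and 71.1 CPM against 2993 and 1410 CPM. Ganglion cell markers were at 881 and 146 CPM in the deep cells against 129 and 125 CPM in the others. Periocular mesenchyme markers were at 379 and 326 CPM against 215 and 161 CPM. Retinal progenitor markers, at 1037 and 853 CPM against 1143.5 and 887 CPM, were lower in the deep cells. So were red blood cell markers, at 240 and 428 CPM against 1160 and 2271 CPM. Over the whole class, neurogenic markers had all 10 genes detected in both libraries at 282 and 558 CPM (138 and 95.3 CPM without the cells of over 10 *Atoh7* UMIs), retinal progenitor markers all 12 genes at 1123 and 870 CPM, and ganglion cell markers 12 and 11 of 12 genes (*Sncg* at 0 in the mutant library) at 275 and 135 CPM. Macrophage markers were at 26.0 and 22.7 CPM, with *Cx3cr1* and *Mrc1* at 0 in both libraries. The part of RNA from cells of other classes in the higher replication gene level was not tested.

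**Figure D4:**
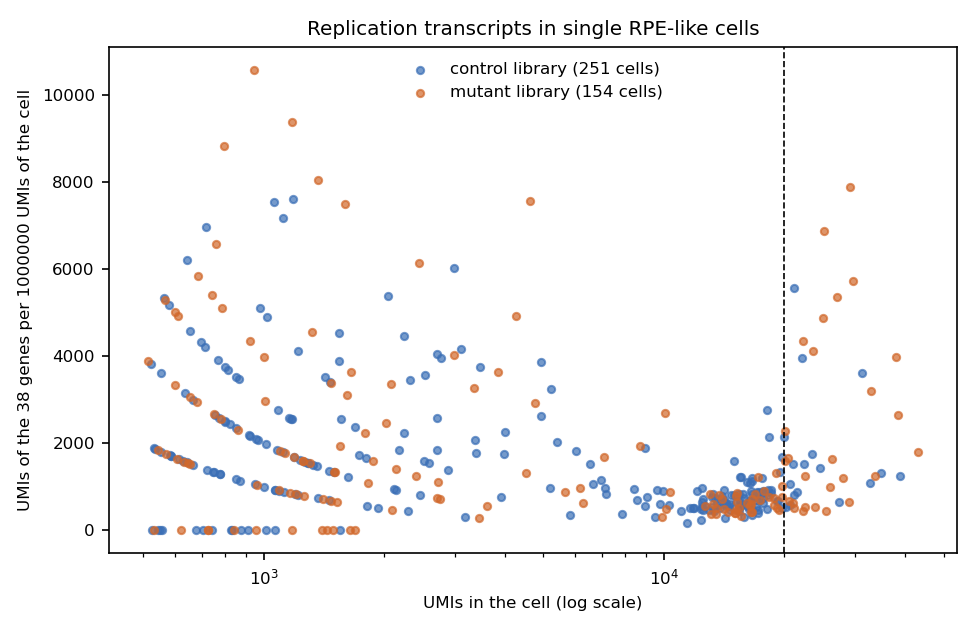
UMIs of the 38 replication genes per 1000000 UMIs of the cell (y axis) against the total UMIs of the cell (x axis, log scale) for each of 251 control and 154 mutant RPE-like cells. The dashed line marks 20000 UMIs. Mutant cells are more frequent to its right (27 against 16), with values of up to 7895 there. The highest value lies to its left, at 10571 in a mutant cell with 10 such UMIs among 946, because few UMIs weigh much in shallow cells.

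Counted cell by cell, replication transcripts were concentrated in few RPE-like cells. The tenth of cells with the most of these UMIs, 26 control and 16 mutant cells, held 42.8% of them in control and 63.1% in the mutant library. Cells were thinned at random to 3000 UMIs to compare them at equal depth, which left out 118 control and 74 mutant cells as too shallow. At that depth the median RPE-like cell had UMIs of 2 of the 38 genes in both libraries. At least 5 of the genes were found in 22 of 133 control cells (16.5%, Clopper-Pearson interval 10.7 to 24.0) and in 25 of 80 mutant cells (31.2%, 21.3 to 42.6), a difference of 14.7 percentage points (Newcombe interval 3.08 to 26.8). Without thinning the shares were 52.6% and 55.2%. Another 4 random draws gave differences of 6.20 to 11.955 points, in 3 of which the interval crossed 0, thinning to 5000 UMIs gave 1.05 points and RPE-like cells with at most 20000 UMIs gave 2.27 points, so the share is not firmly apart between the libraries. Within the 16 control and 27 mutant cells over 20000 UMIs the shares were 43.75% and 63.0%. They differed by 19.2 points, with an interval that crossed 0 (-10.5 to 45.0). Ganglion cell-like cells, which no longer divide, had such shares of 7.69% and 12.5%, and red blood cell-like cells 1.69% in both libraries, while progenitor-like cells had 81.0% and 79.6%. RPE-like cells with at least 5 of the genes had RPE markers at 10167 CPM in control and 9853 CPM in mutant cells, against 15676 and 11218 CPM in the other RPE-like cells, and retinal progenitor markers at 1046 and 867 CPM against 1153 and 903 CPM.

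Other genes of the same pathway were also mostly higher in RPE-like cells of the mutant library. Of 66 further replication and G1/S genes, 55 had at least 20 UMIs, of which 24 were higher and 1 was lower in the mutant library by 1.5-fold, with a median log2 ratio of 0.53. *E2f1*, which encodes an E2F factor, had 12 and 20 UMIs (log2 ratio 1.17, 0.11 to 2.38). *Gmnn*, which blocks a second round of licensing by binding Cdt1, had 107 and 150 UMIs (log2 ratio 0.96, 0.60 to 1.34). *Tk1*, a kinase that salvages thymidine, was at log2 1.38, and the lower gene was *Rrm2b* (23 and 8 UMIs, log2 -0.94, -2.42 to 0.16), a reductase subunit that cells use outside S phase. Of 54 G2/M genes, 52 were compared, of which 32 were higher and 0 were lower by 1.5-fold, with a median of 0.71. Over all 9717 genes compared in the class, 6.61% were higher and 10.7% were lower by that fold. The ratios of these lists were not split by the depth of the cells. Whether they were higher without the deep cells, which held the difference of the 38 genes, was not tested. The promoters of the 66 genes held an E2F core in 30 of the 51 that were found (58.8%), so the feature is not particular to the 38 genes.

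In retinal progenitor-like cells the genotypes were close. All 38 genes were compared, 0 were higher and 0 were lower by 1.5-fold, where 1.91% and 3.74% of 12624 genes were. The ratios ran from -0.18 for *Cdc6* to 0.32 for *Mcm3*, with 25 genes higher and 13 lower. The intervals of 10 genes lay above 0 and that of 1 gene below 0, where those of 5.27% and 8.97% of all genes did, and the summed ratio was 0.03 (0.02 to 0.05). *Mcm3* had 1383 and 1703 UMIs, 83.5 and 104 CPM, and its interval (0.22 to 0.43) lay furthest from 0. *Cdc45* (0.28, 0.11 to 0.45) and *Ung* (0.24, 0.10 to 0.38) came next. *Pcna*, with 2430 and 2254 UMIs, was the gene with the interval below 0 (-0.09, -0.17 to -0.0033). *Myrf* had 12 and 3 UMIs in this class.

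In neurogenic precursor-like cells 36 of 38 genes were lower in the mutant library (55.2% of all genes were), 0 were higher and 3 were lower by 1.5-fold, against 3.64% and 5.99% of 9892 genes. *Ung* had 83 UMIs (29.3 CPM) in control and 50 UMIs (15.3 CPM) in mutant cells, a log2 ratio of -0.93 (-1.47 to -0.41). *Uhrf1*, which recruits the maintenance DNA methyltransferase to new DNA, had 163 and 120 UMIs (log2 ratio -0.65, -1.001 to -0.30), and *Mcm10*, at 33 and 23 UMIs, had an interval that crossed 0. The opposite gene was *Pola2*, with 55 and 91 UMIs (0.51, 0.02 to 1.03). The summed ratio was -0.19 (-0.23 to -0.16), and the share of cells with at least 5 of the genes at 3000 UMIs was 70.4% in control and 56.8% in mutant cells, a difference of -13.6 points (-22.3 to -4.55). Cells of this class with 0 UMIs of 22 mitotic genes were 14.8% of control and 25.9% of mutant cells, and their part in the lower level was not tested. The summed ratio was 0.11 in cells over 20000 UMIs and -0.04 with all variable features kept in the clustering, so its size and its sign rest on which cells were taken into the class.

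Classes outside the eye field gave the size of differences between these libraries where *Rx* is not expected to be active. In periocular mesenchyme-like cells all 38 genes were lower in the mutant library (60.1% of all genes were), none was higher and *Cdc6* (187 and 144 UMIs, -0.69, -1.01 to -0.37) was lower by 1.5-fold, where 2.25% and 3.39% of 13777 genes were higher and lower. The summed ratio there was -0.17 (-0.19 to -0.15), and 24 of the single intervals lay below 0, as did those of 13.2% of all genes. In macrophage-like cells 35 of 37 compared genes were lower (50.6% of all genes were), 0 were higher and 6 were lower by 1.5-fold, against 7.94% and 7.43% of 8662 genes. *Ung* was again the furthest, with 71 and 24 UMIs, a log2 ratio of -1.52 (-2.30 to -0.88). *Lig1* had 233 and 152 UMIs (log2 ratio -0.61, -0.92 to -0.31). The other 4 were *Dscc1*, *Cdc6*, *Prim2* and *Chaf1a*, between -0.91 and -0.62, and the summed ratio was -0.32 (-0.38 to -0.26). In red blood cell-like cells 11 of 31 compared genes were higher and 0 were lower by 1.5-fold, where 35.2% and 4.02% of 5721 genes were, so the share of members is near that of all genes. The summed ratio there was 0.49 (0.36 to 0.63), and the median over all genes of the class was 0.39. In endothelium-like cells the summed ratio was near 0 (-0.06 to 0.06), and in surface ectoderm-like cells 0.15. In the main processing, the summed ratio thus ran from -0.32 to 0.49 in classes not expected to carry the deletion, against 0.66 in RPE-like cells. Under the alternatives given at the end it ran from -0.060 to 0.85 in surface ectoderm-like cells and from -0.25 to 2.14 in red blood cell-like cells. In periocular mesenchyme-like cells it ran from -1.30 to 0.041, and in RPE-like cells from 0.050 to 1.16, so the ranges overlap.

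The replication genes also differed from one another along the cell cycle, which was read from 22 mitotic genes such as *Ube2c*, *Ccnb2* and *Cenpf* that include none of the 38. This list was taken from the 54 G2/M genes after seeing the data, because nearly every progenitor-like cell had a UMI of the 54. Progenitor-like cells thinned to 3000 UMIs had 0 mitotic UMIs in 181 control and 249 mutant cells, 1 to 4 in 425 and 413, and 5 or more in 691 and 695. The summed replication genes were highest in the middle group, at 4521 and 4843 CPM, against 3234 and 3348 CPM in cells with 0 and 3570 and 3556 CPM in cells with 5 or more. Between the cells with 5 or more and those with 0, the intervals of 6 genes lay below 0 and those of 6 others above 0 in both libraries, or 15.8% of the 38 genes each way. Over 9539 genes with at least 20 UMIs in these cells, without the 22 that made the split, 2.38% lay below and 3.57% above 0 in both libraries. The group with 5 or more holds most of the thinned cells, so it is not a count of cells in mitosis.

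The 6 genes lower in cells with 5 or more mitotic UMIs were *Ung* and 5 licensing genes, *Mcm2*, *Mcm3*, *Mcm4*, *Mcm6* and *Cdt1*. *Ung* was at 84.7 CPM in cells with 0 and 15.4 CPM in cells with 5 or more mitotic UMIs of the control library, and at 104 and 20.6 CPM in the mutant library, log2 ratios of -2.44 (-3.15 to -1.77) and -2.33 (-2.91 to -1.78). *Mcm6*, whose promoter stretch above holds overlapping cores, was at 145 and 63.7 CPM in control and at 177 and 79.1 CPM in mutant cells, log2 ratios of -1.20 and -1.16. Among licensing genes *Mcm7* was at log2 -0.03 and -0.37, so it stood nearest to 0. The 6 genes higher in cells with 5 or more were *Pclaf*, *Rrm2*, *Rfc5*, *Fen1*, *Tyms* and *Rfc4*, none of which is a licensing gene. *Pclaf* went from 144 to 498 CPM in control and from 133 to 509 CPM in mutant cells, log2 ratios of 1.78 (1.46 to 2.15) and 1.93 (1.64 to 2.25). *Rrm2* was at log2 1.20 and 0.80, and *Rfc5* at 1.14 and 0.89. *Dut*, with the most UMIs, was at 512 and 516 CPM in control and at 498 and 519 CPM in mutant cells.

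**Figure D5:**
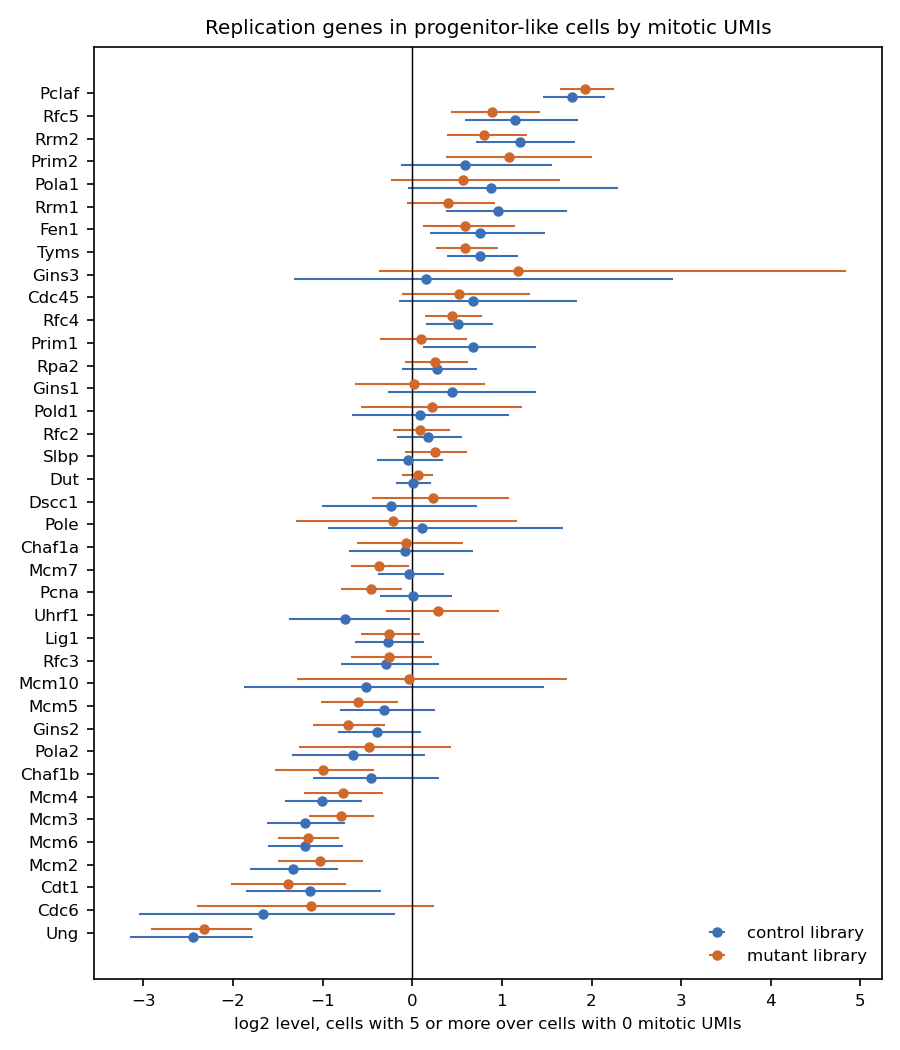
Log2 level of each replication gene in retinal progenitor-like cells with 5 or more over those with 0 UMIs of 22 mitotic genes (x axis), for the control and mutant libraries, with exact conditional binomial intervals. *Ung* and licensing genes lie left of 0, *Pclaf* lies furthest right, and both libraries give a like order.

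The same split was made in RPE-like cells, where 19 of 133 control cells (14.3%) and 15 of 80 mutant cells (18.8%) had 5 or more mitotic UMIs. In those the replication genes were at 2351 and 3111 CPM, a log2 ratio of 0.40 (0.05 to 0.76). Cells with 1 to 4 mitotic UMIs held 703 and 1406 CPM, a log2 ratio of 0.99 (0.59 to 1.42). Cells with 0 held 840 and 1050 CPM, and the interval of their ratio crossed 0 (0.33, -0.03 to 0.67). The 54 G2/M genes gave another picture. With them 5 or more UMIs were found in 54 control (40.6%) and 42 mutant RPE-like cells (52.5%), where the replication genes were at 1389 and 2357 CPM, a log2 ratio of 0.76 (0.51 to 1.02). In cells with 1 to 4 and with 0 UMIs of the 54 genes the ratios were -0.11 (-0.53 to 0.29) and 0.40 (-1.11 to 1.63), with intervals that crossed 0. Which cells held the gap between the libraries thus depended on the list that split them.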

How the data were processed

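Single-cell libraries of eye cups at e13.5, 1 per genotype with 3 pooled samples each, were analysed from the UMI counts per gene and barcode that the authors deposited. Per the submitters' processing notes and the methods of the study, the authors made these counts with Cell Ranger 7.1.0 on mm10, and list Seurat 4.1.1. The counts cover called cells before the study's filters and are not normalized. Whether intronic reads were counted is not given in the sources used here.

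As in the study, cells needed at least 200 genes and at most 15% mitochondrial UMIs. Scrublet (scanpy 1.11.5, expected rate 5%) marked 68 control and 65 mutant doublets, which were removed. The study's limit of 2000 UMIs per cell was run as an alternative only. Cells were integrated and clustered in Seurat 5.3.0 under R 4.3.3 with 30 dimensions and a resolution of 0.8. Of 2000 variable features 1946 were used, without the replication, other G1/S and G2/M genes and *Myrf*, so that these did not shape the clusters. Clusters were named from marker lists, with thresholds set after the clusters had been seen. UMIs were summed per class and library and given as CPM, UMIs per 1000000 of the class. Log2 ratios of mutant to control sums, after adding 1 UMI to both, have exact conditional binomial intervals from scipy 1.17.1 and were made for genes with at least 20 UMIs over both libraries. A gene counts as higher or lower past a fold of 1.5. The ratio step was tested on simulated class sums and the thinning step on the RPE-like cells themselves. The simulated sums held counting error only, so they do not test the intervals for spread between cells.

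The depth was 63483835 and 75228861 UMIs. With 1 library per genotype no p-value was made, and intervals cover counting error only, not embryos or library preparation. In single cells of a pool, fewer dividing cells and less RNA per cell cannot be told apart in a class sum.

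The members and lists were chosen with earlier results of these data known. All members are named by role. Values per library are written out for the gene of each role with the most UMIs, for each gene past 1.5-fold in RPE-like cells whose interval leaves out 0, and for *Myrf*. Others were given after their values were seen. The 22 mitotic genes, the split at 20000 UMIs as a result of its own, the removal of shared barcodes or of cells with over 10 *Atoh7* UMIs and the further draws of thinning were added after seeing the data.

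Positions and overlaps came from GENCODE vM21 on GRCm38, promoters from RefSeq on GRCm38.p6. An annotated gene overlaps 9 of the 38 genes on the same strand and 16 on the opposite strand (*Trip4* for *Pclaf*, *Gm41325* for *Dscc1*), and pseudogenes are named for *Pcna* and *Tyms*, where reads could be shared. Sequences of proteins and the e15.5 and P0 samples were not analysed here.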

Additional observations from a re-analysis of the deposited data

Results flagged for a closer look

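The log2 ratio of the summed replication genes, mutant over control, was above 0 in RPE-like cells and below 0 in 3 other classes. It was higher in RPE-like cells (0.66) than in neurogenic precursor-like cells (-0.19) by 0.85, than in periocular mesenchyme-like cells (-0.17) by 0.83, and than in macrophage-like cells (-0.32) by 0.98. With 1 library per genotype the difference was not tested. In RPE-like cells with at most 20000 UMIs the ratio was 0.05 (-0.07 to 0.17).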

How the results depend on the processing

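With 1 library per genotype no replicate could be left out, and no paired analysis was possible because each genotype has a single library. In RPE-like cells the summed ratio stayed above 0 under all 15 alternatives, from 0.050 to 1.16. It was 0.57 with doublets kept, 0.17 and 0.050 in cells with at most 2000 and 20000 UMIs, 0.84 with at most 5% mitochondrial UMIs, 1.16 in cells with *Xist* UMIs (female) and 0.94 in cells with UMIs of Y-linked genes (male), and 0.27 with RPE-like cells picked one by one from their markers. Cells with UMIs of neither *Xist* nor Y-linked genes, or of both, were in neither sex group. The sex groups are thus not a split of all cells, and their depth was not compared. The genes higher by 1.5-fold (22 of 36) were 1 of 4 and 3 of 29 at limits of 2000 and 20000 UMIs, 12 of 17 in female cells, 13 of 30 over 20000 UMIs and 5 of 38 with such picked cells, and 10 at 2-fold; the lower ones (0) were 3 at most 20000 UMIs and 1 in female cells. Of the 36 genes 17 took another sign under at least 1 alternative, in 23 values, of which 12 were in cells with at most 20000 UMIs. Among genes past 1.5-fold these were *Rrm2* (-0.29) at most 2000 UMIs, *Lig1* (-0.056), *Chaf1b* (-0.18) and *Rpa2* (-0.055) at most 20000 UMIs, *Cdc45* (-0.21) at 5% mitochondrial UMIs, *Rfc5* in female cells (-0.66) and over 20000 UMIs (-0.12), and *Rpa2* (-0.047) in picked cells. The other 11 lay below 1.5-fold, and the furthest were *Uhrf1* (-0.89), *Mcm4* (-0.82) and *Pcna* (-0.54) at most 20000 UMIs. The other pathway genes higher (24) were 12 at a minimum of 50 UMIs and 5 in picked cells. Shares over all genes were not counted under the alternatives. The share of RPE-like cells with at least 5 of the genes differed by 1.05 points at 5000 UMIs and 2.27 at most 20000 UMIs.

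In retinal progenitor-like cells 2 genes were lower by 1.5-fold at most 2000 UMIs, and the summed ratio was -0.050 there, 0.053 at most 20000, -0.033 over 20000, 0.069 in female and 0.015 in male cells. In neurogenic precursor-like cells it was -0.14 with doublets kept, -0.69 and -0.27 at most 2000 and 20000 UMIs, 0.11 over 20000, -0.039 with all variable features, -0.11 and -0.14 at resolutions of 0.4 and 1.6, and -0.15 and -0.30 in female and male cells. In periocular mesenchyme-like cells it was -1.30 and -0.19 at most 2000 and 20000 UMIs, -0.063 over 20000, -0.091 at 5% mitochondrial UMIs, and -0.35 and 0.041 in female and male cells. In macrophage-like cells it was 0.36 and -0.55 at most 2000 and 20000 UMIs, -0.20 over 20000, -0.23 at 5% mitochondrial UMIs and -0.20 in male cells. The causes were not tested. Alternatives that left fewer than 20 UMIs for a gene gave no value for it, and RPE-like genes with under 50 UMIs are limited most by depth.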
